A study of Mus musculus with 15 samples.

Results

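The retinoid visual cycle genes described here are *Rpe65*, *Lrat*, *Rgr*, *Rlbp1*, *Rdh5*, *Rdh10*, *Rdh11*, *Ttr* and *Stra6*, chosen by gene symbol. All 9 were listed among the 25038 genes of the RPE/choroid count table. In the table of cultured mouse RPE (mRPE) cells, which lists 20910 genes, 4 of them (*Rdh5*, *Rdh10*, *Rdh11* and *Stra6*) were analysed, and the other 5 were not analysed here in mRPE. The 2 tables together hold 26509 genes.

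RNA-seq was run on 15 libraries to ask what loss of Prom1, a membrane glycoprotein, does to the RPE. In situ, 3 RPE/choroid libraries are labelled WT and 3 are labelled *Prom1*-KO. These knockout mice were Prom1 fl/fl crossed with RPE65-Cre and gavaged with tamoxifen, so that the deletion is meant for the RPE alone. In culture, 4 libraries are of WT mRPE cells, 3 of the *Prom1*-KO clone 22 (KO22) and 2 of clone 26 (KO26), both made with Cas9 and one guide RNA. The study's methods describe the 2 knockout lines as independent, with deletions at different places in *Prom1*. The methods also name a scrambled guide RNA, but not whether the sequenced WT cells carried it or Cas9. Cre was driven by the promoter of *Rpe65*, itself one of the 9 genes, and the sources used here do not say whether the driver sits in the *Rpe65* gene, whether the WT mice carried the floxed allele, Cre or tamoxifen, or how many mice gave a library. The study's methods give mice of 6 to 8 weeks and both sexes, without naming these libraries. The mRPE cells were pooled from several C57/BL6J mice, for which the methods give an age of 8 weeks or more, and immortalized with viral oncogenes. Each knockout group is 1 clone, so clone and genotype cannot be told apart within a clone. Nothing in the labels says that libraries of a group came from separate animals or cultures, so the p-values measure only the spread between these libraries.

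The visual cycle rebuilds 11-cis-retinal, the light-absorbing group of the opsins, from the all-trans-retinol that photoreceptors release after bleaching. In the RPE, LRAT esterifies retinol, RPE65 converts the retinyl ester to 11-cis-retinol, and RDH5 with other dehydrogenases oxidizes it to 11-cis-retinal, which CRALBP, the product of *Rlbp1*, binds and carries. Retinol reaches the RPE from the blood bound to RBP4 and transthyretin, and STRA6 is the receptor that takes it in.

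In GRCm39, *Rpe65* (ENSMUSG00000028174) spans chr3:159304802-159330958 and *Rdh10* chr1:16175555-16203958, both on the plus strand. *Lrat* spans chr3:82799886-82811288, *Rgr* chr14:36756866-36770921 and *Rdh5* chr10:128749385-128759341, all on the minus strand. *Rlbp1* lies at chr7:79024602-79038176 and *Rdh11* at chr12:79220408-79239067 on the minus strand and *Stra6* at chr9:57970967-58063543 on the plus strand. The bases just before the start are shown for the 5 genes that passed both limits of the edgeR test below in RPE/choroid. They were read from GRCm39 at the start of the canonical GENCODE M39 transcript, 250 bases each, 5′ to 3′ on the strand of the gene. Capitals mark GGATTA (an OTX motif) and CATGTG (an E box), or their reverse complements.

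*Rpe65*, chr3:159304552-159304801, plus strand: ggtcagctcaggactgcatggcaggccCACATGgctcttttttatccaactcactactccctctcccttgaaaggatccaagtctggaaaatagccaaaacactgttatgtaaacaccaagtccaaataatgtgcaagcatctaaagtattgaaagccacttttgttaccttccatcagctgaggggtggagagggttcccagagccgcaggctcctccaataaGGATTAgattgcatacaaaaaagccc

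*Rgr*, chr14:36770922-36771171, minus strand: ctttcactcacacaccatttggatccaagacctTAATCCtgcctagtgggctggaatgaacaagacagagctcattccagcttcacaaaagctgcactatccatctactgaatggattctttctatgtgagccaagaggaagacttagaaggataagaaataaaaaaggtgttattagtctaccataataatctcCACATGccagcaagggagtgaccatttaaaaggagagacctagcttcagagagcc

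*Rdh5*, chr10:128755438-128755687, minus strand: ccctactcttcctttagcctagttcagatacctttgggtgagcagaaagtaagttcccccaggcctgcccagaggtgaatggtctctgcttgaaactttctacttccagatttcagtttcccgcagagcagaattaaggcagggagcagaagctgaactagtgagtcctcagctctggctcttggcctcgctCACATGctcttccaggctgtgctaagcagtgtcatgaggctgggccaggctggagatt

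*Lrat*, chr3:82811289-82811538, minus strand: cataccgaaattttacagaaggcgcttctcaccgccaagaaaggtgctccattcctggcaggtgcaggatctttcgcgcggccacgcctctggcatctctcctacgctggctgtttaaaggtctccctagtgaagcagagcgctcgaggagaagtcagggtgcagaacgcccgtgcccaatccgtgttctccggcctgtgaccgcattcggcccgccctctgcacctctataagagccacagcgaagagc

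*Rdh10*, chr1:16175305-16175554, plus strand: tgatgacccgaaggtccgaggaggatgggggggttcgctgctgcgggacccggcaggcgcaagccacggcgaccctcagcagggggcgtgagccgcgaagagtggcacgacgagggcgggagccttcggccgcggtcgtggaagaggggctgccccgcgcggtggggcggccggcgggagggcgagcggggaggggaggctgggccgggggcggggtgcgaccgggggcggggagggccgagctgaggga

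The windows searched ran from 250 bases before to 50 bases after the start, on both strands, for 8 of the 9 genes. *Rpe65*, *Rgr* and *Rdh11* held GGATTA, which 7.13% of 15909 promoters of protein-coding genes in the RPE/choroid table hold. *Rpe65*, *Rgr* and *Rdh5* held CATGTG, which is in 9.69% of those promoters. In *Rpe65* the first base of GGATTA stood 26 bases before the start. The other E box, CACGTG, and TATAAA were in none of the 8 windows, and AACAAT, a SOX motif, was in that of *Rdh11* alone. A match is a description of letters, and no binding was measured.

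In RPE/choroid the libraries summed to 48154444 to 61766179 counts, and in mRPE to 8076188 to 27537863 counts. The 2 mitochondrial ribosomal RNAs took 55.3 to 59.6% of the counts in the WT libraries of RPE/choroid and 62.9 to 80.4% in those labelled *Prom1*-KO, the highest share being that of 12965-SB-06, which stands apart. Levels are CPM, counts scaled to a common library size, here by edgeR's TMM. Called genes had, in edgeR's quasi-likelihood test, a log2 fold change beyond 1.2 in either direction with an adjusted p below 0.05. *Prom1* itself was at 48.7, 49.6 and 53.3 CPM in the WT libraries and at 49.9, 48.1 and 35.5 CPM in those labelled *Prom1*-KO (log2 fold change -0.18 ± 0.16 SE, adjusted p = 0.824 by edgeR). The deletion cannot be read from the *Prom1* counts of this mixed tissue, and the direction of every comparison below rests on the labels. *Prom1* was not analysed here in mRPE.

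The RPE/choroid libraries held RPE transcripts together with those of choroid and retina. Pigment genes shared by RPE and choroidal melanocytes were high in both groups: *Tyrp1* was at 292 to 374 CPM in WT and 269 to 331 CPM in the knockout, and *Dct* at 315 to 545 and 570 to 619 CPM. *Best1*, a chloride channel gene that marks the RPE, was at only 1.02 to 1.72 CPM in WT and 0.735 to 1.86 CPM in the knockout.

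In RPE/choroid the visual cycle genes were lower in the libraries labelled *Prom1*-KO, most steeply the genes for the isomerase and the RGR opsin. Of the 9 genes, 5 were called lower (*Rpe65*, *Rgr*, *Lrat*, *Rdh10* and *Rdh5*) and 0 higher. Over all 24926 genes tested, 0.189% were called lower and 0% higher, that is 47 and 0 genes. At an unadjusted p under 0.05, 8 of the 9 genes were lower and 0 higher, against 1075 lower and 993 higher genes in the whole table, and DESeq2 called 8 of the 9 lower and 0 higher beside 189 lower and 84 higher genes in all (0.758% and 0.337%). The median log2 fold change of the 9 genes was -2.55, and that of all genes tested was 0.01. For 8 of the 9 genes every knockout library was below every WT library, as it was for 7.89% of all genes tested. In bulk tissue, fewer RPE cells and less RNA per RPE cell cannot be told apart.

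**Figure D1:**
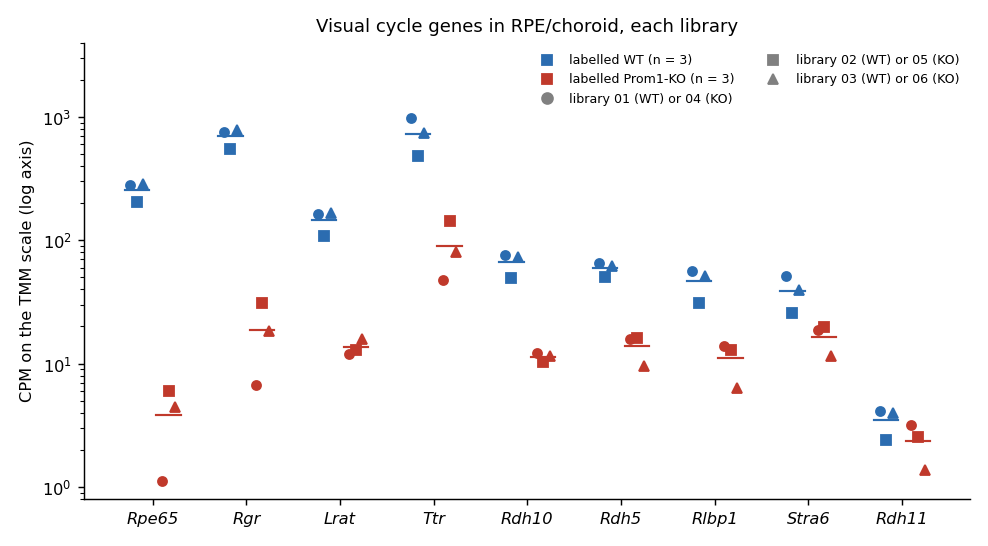
CPM on the TMM scale (log axis) of each visual cycle gene in the 3 WT and 3 *Prom1*-KO libraries of RPE/choroid. Points are libraries, symbols tell libraries apart and do not pair them, and bars are group means. All genes but *Rdh11* have every knockout point below every WT point, and the square of 12965-SB-02 is the lowest WT point of each gene.

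*Rpe65* encodes the isomerase itself. It had 280, 204 and 287 CPM in the WT libraries 12965-SB-01, 12965-SB-02 and 12965-SB-03, and 1.13, 5.97 and 4.48 CPM in the knockout libraries 12965-SB-04, 12965-SB-05 and 12965-SB-06. The lowest WT library was 34.1 times the highest knockout library. The log2 fold change was -6.06 ± 0.62 (SE, adjusted p = 0.0191 by edgeR), and the knockout mean was 1.5% of the WT mean. *Rpe65* fell from rank 46 to 76 among the genes of each WT library to rank 7341 to 14846 in the knockout libraries. The 3 knockout libraries differed among themselves by 5.31 times, and their raw counts were 58, 366 and 135.

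*Rgr* encodes the RGR opsin, a retinal-binding protein of RPE and Müller glia. It stood at 759, 546 and 786 CPM in WT and at 6.7, 30.7 and 18.3 CPM in the knockout libraries, in the same order of libraries. Its log2 fold change was -5.23 ± 0.57 (SE, adjusted p = 0.0242 by edgeR). As for *Rpe65*, 12965-SB-04 was the lowest and 12965-SB-05 the highest knockout library.

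*Lrat*, the gene for the enzyme that makes the retinyl esters, was at 164, 109 and 165 CPM in WT and at 12.0, 12.9 and 15.9 CPM in the knockout. The groups stood 6.83 times apart at their nearest libraries. The log2 fold change was -3.43 ± 0.22 (SE, adjusted p = 0.00445 by edgeR), the smallest p of the 9 genes and the fourth smallest of the whole table. The knockout libraries of *Lrat* differed among themselves by only 1.33 times.

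Of the 3 dehydrogenases, 2 were called. *Rdh10*, an all-trans-retinol dehydrogenase, fell from 76.4, 49.6 and 72.6 CPM to 12.1, 10.3 and 11.5 CPM (log2 fold change -2.55 ± 0.20 SE, adjusted p = 0.00556 by edgeR). *Rdh5*, the 11-cis-retinol dehydrogenase, fell from 65.5, 50.7 and 62 CPM to 15.9, 16.1 and 9.59 CPM (-2.10 ± 0.23 SE, adjusted p = 0.0242 by edgeR). *Rdh11*, which acts on both cis and trans retinols, was at 4.1, 2.42 and 3.96 CPM in WT and at 3.16, 2.55 and 1.36 CPM in the knockout. The groups overlapped for *Rdh11*, the lowest of the 9 genes, and the difference did not pass the test (-0.56 ± 0.34 SE, adjusted p = 0.734 by edgeR).

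*Rlbp1*, the gene for CRALBP, which is also made by Müller glia, was at 56.8, 31.3 and 51.7 CPM in WT and at 14.0, 12.8 and 6.37 CPM in the knockout. The groups did not overlap, but the difference missed the adjusted p limit (log2 fold change -2.07 ± 0.34 SE, adjusted p = 0.0929 by edgeR). With DESeq2 the adjusted p of *Rlbp1* was 4.97e-07.

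The proteins encoded by *Ttr* and *Stra6* serve the delivery of retinol from the blood, which was not measured here. *Ttr*, for transthyretin, was the most abundant of the 9 per base of transcript and was at 977, 481 and 735 CPM in WT. It was at 48, 143 and 80.3 CPM in the knockout, 12.4% of the WT mean. Both groups were wide, the WT libraries by 2.03 times and the knockout libraries by 2.97 times, and the difference missed the limit (log2 fold change -3.01 ± 0.45 SE, adjusted p = 0.0709 by edgeR), while DESeq2 gave an adjusted p of 2.88e-11. *Stra6*, for the RBP4 receptor, was at 51.8, 25.9 and 39.2 CPM in WT and at 18.6, 19.7 and 11.4 CPM in the knockout (-1.23 ± 0.30 SE, adjusted p = 0.248 by edgeR). The nearest libraries of the *Stra6* groups were 1.32 times apart, and DESeq2 gave an adjusted p of 0.00755.

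**Figure D2:**
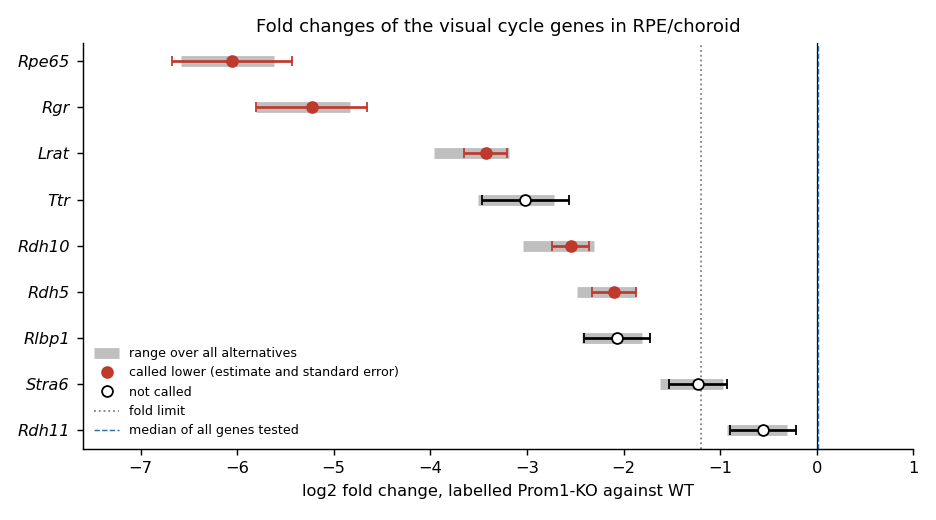
Log2 fold change of each visual cycle gene in RPE/choroid, labelled *Prom1*-KO against WT. Points are edgeR estimates with their standard errors (filled where called), grey bars span all alternative settings, and lines mark the fold limit of 1.2 and the median of all genes tested. Estimates run from -6.06 for *Rpe65* to -0.56 for *Rdh11*, and the grey bars of all 9 genes stay below 0.

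Of the 5 calls, that of *Lrat* held without each library in turn, and those of *Rpe65*, *Rgr*, *Rdh5* and *Rdh10* were lost without 1 or more of them. Without 12965-SB-01, 12965-SB-02 or 12965-SB-03, only *Lrat* and *Rdh10* were still called, and without 12965-SB-05 only *Lrat* was. Without 12965-SB-06, the library with the high ribosomal RNA share, *Lrat*, *Rdh10* and *Rdh5* were called, with *Rpe65* at -6.19 (adjusted p = 0.0942 by edgeR). Without 12965-SB-04, 4 were called and *Rdh5* missed the limit (adjusted p = 0.0546 by edgeR). The log2 fold changes of all 9 genes stayed below 0 without each library, and *Rpe65* stayed between -6.55 and -5.62, the latter without 12965-SB-04.

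Summed, the 9 genes made 2434, 1499 and 2203 CPM in WT and 132, 254 and 159 CPM in the knockout libraries. *Rgr* made 31.2 to 36.4% of this sum in WT and 5.09 to 12.1% in the knockout, and *Rpe65* went from 11.5 to 13.6% to 0.855 to 2.81%. *Stra6* took 1.73 to 2.13% in WT and 7.19 to 14.1% in the knockout. In WT, 12965-SB-02 was the lowest library for all 9 genes. Among the knockout libraries, 12965-SB-04 was lowest for 4 genes (*Rpe65*, *Rgr*, *Lrat* and *Ttr*), 12965-SB-06 for 4 others (*Rdh5*, *Rlbp1*, *Rdh11* and *Stra6*) and 12965-SB-05 for *Rdh10*.

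The visual cycle genes were also set against other RPE genes. Of the 30 RPE markers outside the visual cycle, 1 was called by edgeR: *Slc16a8*, the RPE lactate transporter gene, fell from 20.0 to 27.5 CPM in WT to 2.42 to 4.06 CPM (log2 fold change -2.98 ± 0.24 SE, adjusted p = 0.00692 by edgeR). DESeq2 called 3 lower, adding *Itgb8* and *Slc6a20a*, beside 0.758% of all genes. At an unadjusted p under 0.05, 11 were lower and 0 higher, beside 1075 lower and 993 higher of the 24926 genes tested. The median of the 30 was -0.33, and for 12 of them every knockout library was below every WT library and for 1 every one was above, as for 7.89% and 6.71% of all genes. *Mitf*, the transcription factor of pigment cells, was at 44.3 to 53.9 CPM in WT and 27.5 to 30.3 CPM in the knockout (-0.82 ± 0.13 SE, adjusted p = 0.0815 by edgeR). *Otx2*, a transcription factor of RPE and retina, was at 27.9 to 52.6 and 17.4 to 33.3 CPM (-0.67 ± 0.30 SE, adjusted p = 0.626 by edgeR). The summed level of the 30 was 2355 to 2927 CPM in WT and 2054 to 2289 CPM in the knockout, much of it from pigment genes that melanocytes share. The 9 visual cycle genes amounted to 83.2, 60.5 and 93.6% of that sum in WT and to 5.75, 11.4 and 7.75% in the knockout. With the libraries scaled by these markers in place of TMM, a scale that raises the median of all genes to 0.24, the same 5 genes were called and *Rpe65* was at -5.81 ± 0.62 (SE, adjusted p = 0.0244 by edgeR).

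**Figure D3:**
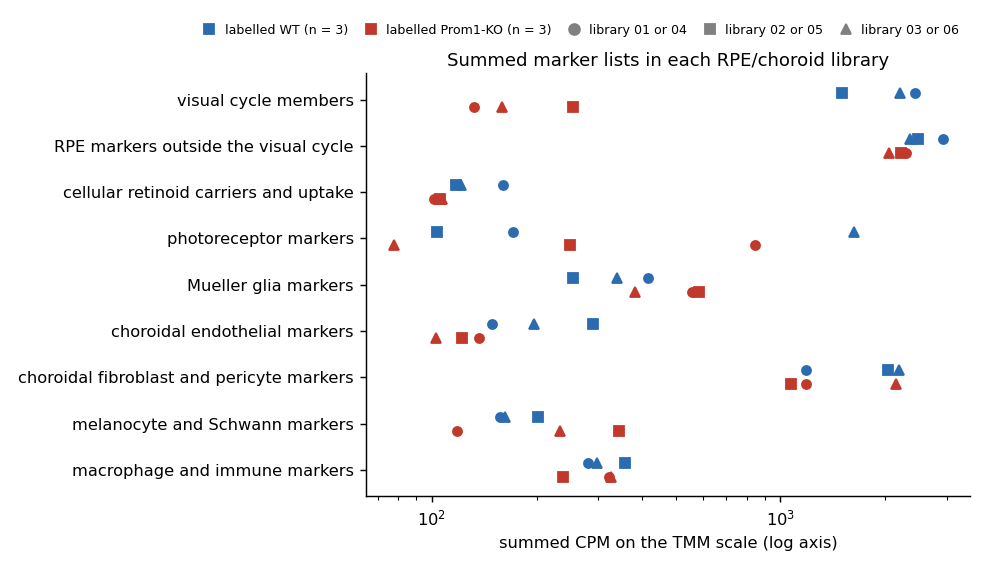
Summed CPM on the TMM scale (log axis) of marker lists in each RPE/choroid library, with the visual cycle genes in the top row. Symbols tell libraries apart and do not pair them. The visual cycle sum is 1499 to 2434 CPM in WT and 132 to 254 CPM in the knockout, while the RPE markers outside it lie between 2054 and 2927 CPM in all 6 libraries.

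Markers of other cell types also varied between these libraries. The 23 photoreceptor markers analysed summed to 104 to 1627 CPM in WT and 77.8 to 845 CPM in the knockout, with 12965-SB-03 and 12965-SB-04 highest in their groups. The 10 Müller glia markers summed to 254 to 416 CPM in WT and 382 to 582 CPM in the knockout, and *Gfap*, raised in reactive glia, was at 0.168 to 1.49 and 3.86 to 19.7 CPM (log2 fold change 4.11 ± 0.95 SE, adjusted p = 0.221 by edgeR). The 12 choroidal endothelial markers summed to 149 to 289 CPM in WT, highest in 12965-SB-02, and 103 to 136 CPM in the knockout. None of these markers was at 0 in a whole group, and 0 of these 45 markers were called by edgeR. At an unadjusted p under 0.05, 5 were higher (all of Müller glia) and 10 lower (9 of them endothelial). DESeq2 called the glial *Gfap*, *Kcnj10* and *Slc1a3* higher and the endothelial *Plvap* and *Tie1* lower. The part of tissue composition in the fall of the visual cycle genes was not tested. With the photoreceptor markers left out of the table the same 5 visual cycle genes were called, as they were with the mitochondrially encoded genes left out. Leaving these rows out keeps the counts of the visual cycle genes as they are, so tissue composition cannot be read from it.

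No other gene of the retinoid lists was called in RPE/choroid. Over 5 fixed lists (the photoreceptor side of the cycle, cellular carriers, other dehydrogenases, ester storage, and retinoic acid formation and removal), 45 further genes were tested, and 0 were called in either direction by edgeR or DESeq2, with 4 higher and 5 lower at an unadjusted p under 0.05. Their median log2 fold change was 0.01, as for all genes. *Lrp2*, an endocytic receptor that takes up retinol-carrier complexes, was at 15.3 to 23.9 CPM in WT and 6.17 to 13.3 CPM in the knockout (log2 fold change -0.99 ± 0.30 SE, adjusted p = 0.402 by edgeR). *Rdh12*, the photoreceptor dehydrogenase whose gene neighbours *Rdh11*, was at 0.237 to 4.85 and 0.199 to 2.68 CPM (-0.65 ± 1.18 SE, adjusted p = 0.932 by edgeR). *Rrh*, for peropsin, a retinal-binding opsin of the RPE, is in none of the lists and is named after its values were seen: it fell from 19.7 to 23.3 CPM to 5.27 to 6.63 CPM (-1.89 ± 0.15 SE, adjusted p = 0.00556 by edgeR).

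Among the genes whose log2 CPM followed that of *Rpe65* most closely over the 6 RPE/choroid libraries were *Rgr*, *Ankfn1*, *Pon1*, *Arhgef37*, *Tshr*, *Myrf*, *Mtch1*, *Fgf1* and *Rhobtb3*, with Pearson's r of 0.990 to 0.999. The 6 libraries form 2 groups, so this r describes mainly the gap between them. Of these genes, *Rgr*, *Ankfn1*, *Pon1*, *Tshr* and *Myrf* were called lower. *Tshr*, the thyrotropin receptor gene, fell from 32.4 to 47.2 CPM to 3.77 to 5.58 CPM. *Lrat* ranked 18th and *Ttr* 21st among 15340 genes by this measure, and *Rdh11* had an r of 0.51.

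The neighbours of the 9 genes on the chromosome were also measured. Of the 18 nearest protein-coding genes, 1 on each side, 0 were called by edgeR, 2 were lower at an unadjusted p under 0.05, and DESeq2 called 1, *Abhd2* beside *Rlbp1*, lower. Their log2 fold changes ran from -1.58 to 0.46 with a median of -0.08. Some spans overlap other genes. *Rdh5* shares 3692 exonic bases with *Bloc1s1* on the same strand, and reads there cannot be given to one gene, so its count would rest on the other 1529 exonic bases. *Bloc1s1* was at 0.233 to 0.406 CPM in WT and 0.233 to 0.431 CPM in the knockout. *Lrat* shares 448 exonic bases with the antisense gene *Rbm46os*, which was at 0.323 to 0.481 CPM in WT and 0.0388 to 0.0995 CPM in the knockout (log2 fold change -2.55 ± 0.47 SE, adjusted p = 0.136 by edgeR). *Stra6* shares 16 exonic bases with *Islr*, on the other strand. The library kits named are stranded, but which strand was counted is not given in the sources used here.

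Per kilobase of transcript, *Ttr* was the highest of the 9 genes in WT RPE/choroid, at 555 ± 188 CPM per kb (SD, n = 3), followed by *Rgr* at 164 ± 31.0, *Rpe65* at 137 ± 24.7, *Rdh5* at 37.0 ± 4.84 and *Lrat* at 27.2 ± 6.02 CPM per kb. *Rlbp1* was at 18.7 ± 5.42, *Rdh10* at 16.4 ± 3.59, *Stra6* at 7.30 ± 2.42 and *Rdh11* at 0.881 ± 0.235 CPM per kb. The ranges overlapped between *Rgr* and *Rpe65*, between *Lrat* and *Rlbp1* and between *Rlbp1* and *Rdh10*. With exon bases not shared on the same strand as the length, *Rdh10* stood above *Rlbp1*.

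In the knockout tissue the order changed. *Ttr* remained first at 68.7 ± 36.6 CPM per kb (SD, n = 3), and *Rdh5* was next at 8.63 ± 2.31. By group mean *Rpe65* was eighth at 2.06 ± 1.33 CPM per kb, above *Rdh11* alone, at 0.594 ± 0.231. Its place varied between libraries. In 12965-SB-04 *Rpe65* was below *Rdh11* (0.601 and 0.798 CPM per kb). In 12965-SB-05 it was above *Lrat* and *Rdh10* (3.19, 2.40 and 2.55), and in 12965-SB-06 above *Stra6* (2.39 and 2.14). With exon bases not shared on the same strand as the length, its mean of 1.99 was also just above that of *Stra6*, at 1.96.

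**Figure D4:**
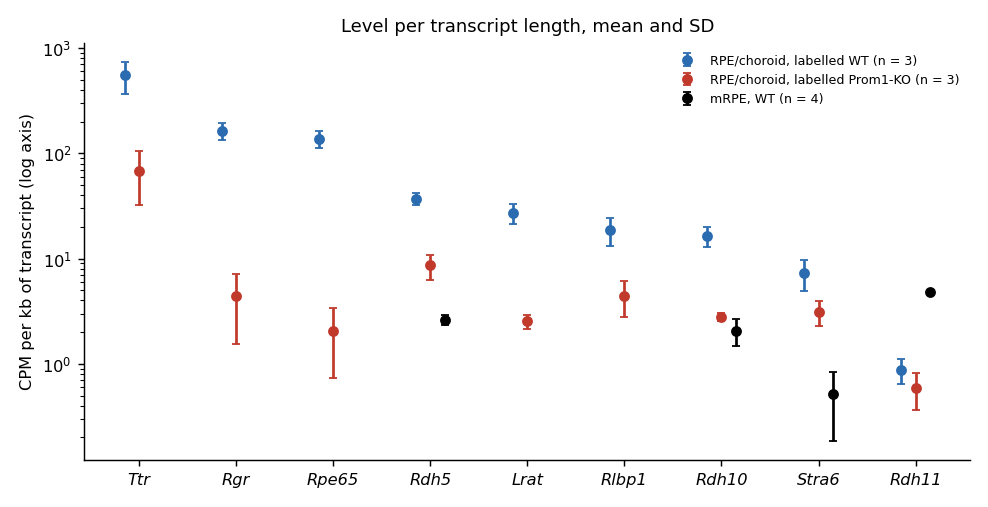
CPM per kb of canonical transcript (log axis) of each visual cycle gene, mean and SD, in WT and *Prom1*-KO RPE/choroid (n = 3 each) and in WT mRPE (n = 4; 4 genes). *Ttr*, *Rgr* and *Rpe65* lead in WT tissue, and *Rdh11* alone is higher in mRPE than in tissue.

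WT mRPE cells held much less of 3 of the 4 genes measured in both sources and more of the fourth. *Rdh5* averaged 59.4 CPM in WT RPE/choroid and 4.21 CPM in WT mRPE, *Rdh10* 66.2 and 8.32 CPM, and *Stra6* 39.0 and 2.75 CPM. *Rdh11* went the other way, with 3.49 CPM in tissue and 19.0 CPM in mRPE. Within a library, *Rdh11* exceeded 45.0 to 55.9% of the genes listed in both tables in WT tissue and 64.3 to 65.2% in WT mRPE, and *Stra6* 91.2 to 96.7% and 18.7 to 42.6%. The 2 tables come from different library sets, so source and library set cannot be told apart, and no test was made. On CPM without the 2 mitochondrial ribosomal RNAs, the log2 difference of tissue over mRPE was 5.03 for *Rdh5*, 4.24 for *Rdh10*, 5.09 for *Stra6* and -1.22 for *Rdh11*, against 3.82, 2.99, 3.83 and -2.45 on the TMM scale.

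Of the 30 RPE markers outside the visual cycle, 16 were analysed in mRPE, where they summed to 1072 to 1188 CPM in WT. *Best1* was at 3.15 to 4.23 CPM in WT mRPE, against 1.02 to 1.72 CPM in WT RPE/choroid, and *Mitf* at 3.02 to 6.77 CPM against 44.3 to 53.9 CPM. The 2 mitochondrial ribosomal RNAs, part of this scale, took 55.3 to 59.6% of counts in WT RPE/choroid and 15.3 to 19.0% in WT mRPE. Without them the log2 difference of tissue over mRPE rose for the visual cycle genes above, for *Rdh11* from -2.45 to -1.22. No such values are given here for *Best1* or *Mitf*. *Serpinf1*, the gene for the secreted factor PEDF, was at 599 to 700 CPM in WT mRPE, and *Col1a1*, the fibrillar collagen gene of fibroblasts, at 3399 to 5406 CPM.

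In mRPE, KO22 differed from WT in 3 of the 4 visual cycle genes by adjusted p, and 1 of them, *Stra6*, also passed the fold limit. Of all 20455 genes tested, 11.4% were called higher and 13.8% lower, so 1 of 4 called higher and 0 of 4 called lower are not far from the background. By adjusted p alone, 2 of the 4 were higher and 1 lower, beside 26.9% and 26.1% of all genes. DESeq2 also called 1 of the 4 higher and 0 lower, beside 11.1% and 13.2% of all genes.

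*Stra6* was at 5.17, 2.81, 1.08 and 1.94 CPM in the WT libraries 8995-SB-1 and 9262-SB-1 to 9262-SB-3. In KO22 it was at 16.2 CPM (8995-SB-2), 11.4 CPM (9262-SB-4) and 7.37 CPM (9262-SB-5), and the groups did not overlap. Of all genes tested, 24.8% had every KO22 library above every WT library and 25.3% had every one below. The log2 fold change of *Stra6* was 2.04 ± 0.29 (SE, adjusted p = 0.000325 by edgeR with library set as a term). Within library set 8995, with 1 library each, KO22 was 1.56 above WT on the log2 scale with 0.5 CPM added, and within set 9262 it was 2.02 above.

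*Rdh10* was at 11.9, 6.86, 7.66 and 6.89 CPM in WT and at 20.9, 13.9 and 13.9 CPM in KO22, again with no overlap. Its log2 fold change of 0.92 ± 0.14 (SE, adjusted p = 0.00047 by edgeR) stayed under the fold limit. *Rdh5* was at 3.62, 4.32, 4.61 and 4.31 CPM in WT and at 1.21, 2.6 and 1.78 CPM in KO22, with a log2 fold change of -1.13 ± 0.25 (SE, adjusted p = 0.00393 by edgeR), also under the fold limit. *Rdh11* was at 18.5 to 20.0 CPM in WT and 16.1 to 19.0 CPM in KO22, with overlapping groups and a log2 fold change of -0.12 ± 0.13 (SE, adjusted p = 0.459 by edgeR).

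**Figure D5:**
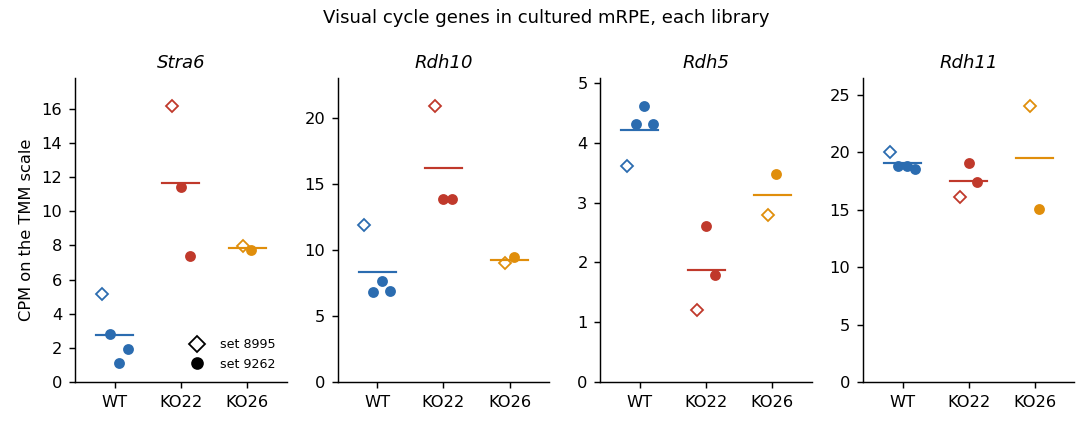
CPM on the TMM scale of the 4 visual cycle genes analysed in mRPE, for each library of WT, KO22 and KO26. Open diamonds are set 8995, filled circles set 9262, and bars group means. KO22 lies above WT for *Stra6* and *Rdh10* and below it for *Rdh5*, and the KO26 points lie inside the WT range for *Rdh10* and above it for *Stra6*.

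Clone KO26 had no call among these genes by edgeR. Both of its libraries, 8995-SB-3 and 9262-SB-6, were removed by the study as outliers and are kept here. Of the 4 genes, 0 were called against WT in either direction by edgeR, and DESeq2 called *Stra6* higher. At an unadjusted p under 0.05, 1 of the 4 was higher and 0 lower, beside 2292 higher and 1871 lower genes in the whole table. Of all 20737 genes tested, edgeR called 1.21% higher and 0.719% lower (2.36% and 1.13% by adjusted p alone), and DESeq2 called 1.74% and 1.3%. *Stra6* was at 7.98 CPM in 8995-SB-3 and 7.75 CPM in 9262-SB-6, above all 4 WT libraries, as were 11.9% of all genes (log2 fold change 1.38 ± 0.37 SE, adjusted p = 0.0697 by edgeR). Within the sets *Stra6* was 0.58 (8995) and 1.76 (9262) above WT. *Rdh10*, at 9.0 and 9.48 CPM, was 0.38 below WT in set 8995 and 0.39 above it in set 9262 (pooled 0.06 ± 0.22 SE, adjusted p = 0.906 by edgeR). *Rdh5* was at 2.78 and 3.47 CPM (-0.32 ± 0.28 SE, adjusted p = 0.559 by edgeR), and *Rdh11* at 24.0 and 15 CPM.

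Tested directly, KO22 and KO26 differed in *Rdh10* by adjusted p (log2 difference 0.87 ± 0.23 SE, adjusted p = 0.0135 by edgeR), under the fold limit. At an unadjusted p under 0.05, 1 of the 4 genes was higher and 1 lower, beside 4401 higher and 4755 lower of the 20737 genes tested. With both limits 0 of the 4 genes were called by edgeR or DESeq2, beside 7.56% of all genes called higher and 10.7% lower by edgeR and 7.6% and 10.6% by DESeq2. By adjusted p alone these shares were 16.3% and 18.1%. The groups of *Rdh10* did not overlap, as for 23.4% of all genes on the higher side, while 24.6% lay on the lower side. The clones' *Rdh5* (-0.82 ± 0.30 SE, adjusted p = 0.0604 by edgeR) and *Stra6* levels (0.65 ± 0.38 SE, adjusted p = 0.216 by edgeR) did not pass.

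Other retinoid genes were also called in mRPE. Of 35 such genes tested in KO22, 5 were called higher and 14 lower, where 11.4% and 13.8% of all genes were called, with a median log2 fold change of -0.64 against -0.03 for all genes, and of 36 in KO26 1 was called higher and 0 lower by edgeR, where 1.21% and 0.719% of all genes were called. Among the carriers in KO22, 3 of 6 genes rose and 1 fell, to be read against the same shares of all genes. *Crabp2*, the carrier of retinoic acid, rose from 0.491 to 2.94 CPM in WT to 27.5 to 64.9 CPM (log2 fold change 4.80 ± 0.23 SE, adjusted p = 7.13e-07 by edgeR). *Rbp2* had 0 counts in all 4 WT libraries and 1.01 to 1.30 CPM in KO22, at least 5.55-fold higher than the level that 3 counts in each WT library would give. *Lrp2* fell from 8.09 to 11.3 CPM to 1.64 to 2.7 CPM (-2.10 ± 0.23 SE, adjusted p = 7.26e-05 by edgeR).

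Among the other dehydrogenases in KO22, 1 of 15 rose and 7 fell, beside 11.4% and 13.8% of all genes. *Dhrs9* fell from 78.8 to 116 CPM to 5.12 to 6.31 CPM (log2 fold change -4.21 ± 0.16 SE, adjusted p = 3.23e-07 by edgeR). *Adh1*, an alcohol dehydrogenase that also takes retinol, was at 18.9 to 32.3 CPM in WT and had at most 2 counts in a KO22 library, at least 119-fold lower than WT with 3 counts per library as the floor. *Dhrs3*, which reduces retinal to retinol, rose from 7.27 to 9.62 CPM to 18.1 to 25.0 CPM (1.21 ± 0.15 SE, adjusted p = 0.000133 by edgeR). Of the 4 retinoic acid genes tested in KO22, *Aldh1a1*, *Aldh1a3* and *Cyp26b1* fell and *Cyp1b1* rose. *Aldh1a1*, a retinal dehydrogenase, fell from 349 to 716 CPM to 1.90 to 7.09 CPM (-6.84 ± 0.23 SE, adjusted p = 2.69e-07 by edgeR). In KO26 *Aldh1a1* was at 189 to 408 CPM (-0.73 ± 0.19 SE, adjusted p = 0.0687 by edgeR), and in RPE/choroid it was at 28.8 to 31.5 CPM in WT and 38.0 to 50.8 CPM in the knockout (0.59 ± 0.14 SE, adjusted p = 0.246 by edgeR).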

How the data were processed

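Counts were analysed for 6 RPE/choroid and 9 mRPE libraries, grouped by their labels. The authors trimmed reads with Trim Galore 0.6.7, aligned them to mm39 with STAR and deposited raw counts per gene, after leaving out genes with low counts. The normalized tables they deposited were not used. From the counts, genes reaching 5 counts in 3 or more libraries were fitted with edgeR 4.0.16 in R 4.3.3 (quasi-likelihood test, TMM, two-sided, Benjamini-Hochberg over all genes tested), with library set (8995 or 9262) as a term in mRPE. KO22 was fitted with WT over 7 libraries, and the KO26 comparisons over 9, with the KO26 libraries that the study had removed as outliers. Standard errors were derived from each log2 fold change and its F statistic (size over root F). DESeq2 1.42.0 was an alternative. Rows with no symbol held 0.0262 to 0.303% of counts and were kept. Replicate libraries differed beyond counting noise (chi-square per degree of freedom 4.8 to 247), so none was merged. Replicate numbers are in accession order and pair nothing. Canonical transcript lengths came from GENCODE M39. The method was tested on simulated data. The 9 genes and all lists were chosen with earlier results of these data known. Named are the 9 genes, *Prom1*, called list genes (at most 6 a list) or defining markers, genes most like *Rpe65* (mean CPM of at least 1) and overlapping genes. In mRPE *Rpe65* was not analysed, so no genes like it are given there. Lists of other retinal neuron, fibroblast and pericyte, Schwann, immune, ciliary body, muscle, blood and lens markers had 0 of 66 genes called in RPE/choroid by edgeR or DESeq2, with 6 higher and 5 lower at an unadjusted p under 0.05. Some genes that this rule names are not reported here.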

Additional observations from a re-analysis of the deposited data

Results flagged for a closer look

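*Rdh10* differed between the 2 mRPE knockout clones in a direct test, with KO22 above KO26 by a log2 difference of 0.87 (adjusted p = 0.0135 by edgeR). The 3 KO22 libraries were at 13.9 to 20.9 CPM and the 2 KO26 libraries at 9.0 and 9.48 CPM. Without the library set term the difference was 0.81 and missed the limit (adjusted p = 0.0769 by edgeR). With 1 KO26 library left, it was 0.52 (without 8995-SB-3) or 1.27 (without 9262-SB-6).

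*Rdh10* also had 1 library far from the others among the 4 WT mRPE libraries: 8995-SB-1, at 11.9 CPM, lay above the 3 libraries of set 9262, at 6.86 to 7.66 CPM. It is the only WT library of set 8995, so library and set cannot be told apart. Of 4 genes looked at in this way 1 stood out, where chance marks about 1 in 20 groups.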

How the results depend on the processing

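In RPE/choroid 5 visual cycle genes were called lower, and leaving out 1 library gave 1 to 4. DESeq2 called 8 (adding *Rlbp1*, *Ttr* and *Stra6*). The raw library totals as scale, chosen after seeing the data, shift the median of all genes to -0.46 and called 6. Scaling by RPE markers called 5, with 7 genes higher and 38 lower in the whole table against 0 and 47. No log2 fold change of the 9 genes changed sign in RPE/choroid under the alternatives run. In mRPE, 1 gene was called in KO22, and leaving out 1 library gave 1 to 2. *Rdh5* joined with filterByExpr (2 called) and without 9262-SB-4 (log2 fold change -1.45), and without a fold limit 3 were called. In KO26, 0 were called, and leaving out 1 library gave 0 to 1. *Stra6* was called there with DESeq2, with only WT and KO26 libraries, and without 8995-SB-2 (1 each). With 1 KO26 library left, *Stra6* was at 1.94 in set 9262 alone, 1.85 without 8995-SB-3 and 0.82 without 9262-SB-6. KO22 against KO26 had 0 called, and 1, *Rdh10*, without a fold limit. *Rdh10* was there at 0.81 without the set term, with an adjusted p of 0.0769 by edgeR. With 1 KO26 library left it was at 0.52 (without 8995-SB-3) or 1.27 (without 9262-SB-6). Values near 0 reversed. In KO26 against WT with 1 library left out, *Rdh10* ran from -0.35 (without 9262-SB-6) to 0.39 (without 8995-SB-3) and was at -0.01 without 9262-SB-1, while set 9262 alone gave 0.42, and *Rdh11* ran from -0.35 (without 8995-SB-3) to 0.36 (without 9262-SB-6), at 0.0013 without 9262-SB-2, while the fit without the set term gave 0.045. *Rdh11* in KO22 against KO26 ran, with 1 library left out, from -0.47 (without 9262-SB-6) to 0.23 (without 8995-SB-3), at 0.08 without 8995-SB-2, and set 9262 alone gave 0.26. The cause was not tested. Counts were lowest for *Stra6* in WT mRPE, at 11 to 130 per library, and for *Rdh5* in KO22, at 14 to 54. No paired analysis was possible because the replicate numbers only follow accession order.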
